A study of Mus musculus with 72 samples.

Results

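A set of 10 genes whose transcripts are made in answer to ERK signalling were followed in cultured mouse ovarian follicles: 3 Sprouty genes (Spry1, Spry2, Spry4), 2 Spred genes (Spred1, Spred2), 3 ERK phosphatase genes (Dusp4, Dusp5, Dusp6) and 2 ETS transcription factor genes (Etv4, Etv5). They were taken by symbol from a table of 56691 genes, and all 10 were found there and passed the filter on low counts that 18727 genes passed. The study asked how the glycosylation of follicle-stimulating hormone (FSH) shapes the transcripts of early secondary follicles, each an oocyte inside layers of granulosa cells. Follicles were cultured for 24 h without FSH, with FSH21, the hypoglycosylated form, or with FSH24, the fully glycosylated form, at 1 or 10 ng/ml. The 72 deposited samples were 18 libraries run on 4 lanes each, in 6 groups of 3. Untreated libraries numbered 1, 5 and 6 went with the 1 ng/ml groups of the same numbers, and untreated libraries 2, 3 and 4 with the 10 ng/ml groups. All groups shared the culture medium, which held bovine serum albumin, fetuin and an insulin-transferrin-selenium supplement. The labels give neither the strain nor the age of the mice. The 3 libraries of a group are described as biological replicates, but no animal or culture is named for them, so p-values reflect how far the libraries of a group lie apart, which may hold technical variation. Because each dose had its own set of numbers, dose and set cannot be told apart in the treated libraries.

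The ERK pathway carries signals from growth factor receptors through RAS, RAF and MEK to the kinases ERK1 and ERK2. Active ERK switches on genes that damp it in turn: Sprouty and Spred proteins act on RAS and RAF above it, and dual-specificity phosphatases remove the phosphates from ERK itself. ETV4 and ETV5 are ETS factors that rise with growth factor signals and bind DNA at a GGAA core. In granulosa cells FSH acts through a receptor that raises cyclic AMP, and the ERK kinases are among the proteins its signal reaches. Transcript levels of these genes are often read as a record of ERK output, but they do not measure ERK activity.

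From RefSeq's promoter table (GRCm38.p6) 8 windows of 7 of the 10 genes were used, those of Spry4, Dusp4 and Etv4 not being analysed here. The 3 shown were picked by how the libraries of their genes lay, as given below. The promoters of Spry1 and Spred1 belong to genes whose libraries with FSH21 at 10 ng/ml all lay below the untreated ones. That of Dusp6 belongs to a gene whose libraries overlapped. None of the 3 genes had an adjusted p under 0.05 there by edgeR, and 12% of all genes tested had FSH21 libraries wholly below. Each is the 250 bases before the start site, 5′ to 3′ on the gene's strand, all 3 on the plus strand, with every GGAA or its reverse complement TTCC in capitals. The windows are chr3:37639697-37639946 for Spry1, chr2:117120821-117121070 for Spred1 and chr10:99262981-99263230 for Dusp6.
Spry1: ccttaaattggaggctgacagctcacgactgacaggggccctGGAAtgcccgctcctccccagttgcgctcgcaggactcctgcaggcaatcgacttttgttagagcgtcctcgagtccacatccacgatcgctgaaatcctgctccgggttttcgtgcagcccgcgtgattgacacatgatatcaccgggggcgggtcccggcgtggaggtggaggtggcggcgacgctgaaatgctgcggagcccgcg
Spred1: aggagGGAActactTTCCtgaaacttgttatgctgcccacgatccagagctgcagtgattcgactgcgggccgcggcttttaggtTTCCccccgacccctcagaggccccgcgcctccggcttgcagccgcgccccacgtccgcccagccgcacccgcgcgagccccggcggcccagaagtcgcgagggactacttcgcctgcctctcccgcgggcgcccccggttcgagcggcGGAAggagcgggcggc
Dusp6: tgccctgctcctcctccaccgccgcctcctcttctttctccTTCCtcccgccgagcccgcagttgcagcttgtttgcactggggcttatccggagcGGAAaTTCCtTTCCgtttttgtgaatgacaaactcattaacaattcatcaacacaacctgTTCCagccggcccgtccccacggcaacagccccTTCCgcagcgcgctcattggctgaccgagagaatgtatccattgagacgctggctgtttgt
The core stood 1 time in the Spry1 window, 4 times in that of Spred1 and 6 times in that of Dusp6. It stood 3 times in the windows of Spry2 and Dusp5, 7 times in that of Spred2, and 4 and 0 times in the 2 windows of Etv5. A GGAA core on either strand is common at this length: 93.4% of the 32851 promoter windows of the table held one, with a median of 3. The longer ETS site CCGGAA was in 12.03% of all windows and in 0 of the 8. The cyclic AMP response core TGACG was in 17.8% of all windows and in those of Dusp5 and Spred2, and its full form TGACGTCA was in 1.55% and in 0 of the 8. For the repressor CIC, which acts on Etv4 and Etv5 in other cells, only the octamers TGAATGAA and TGAATGGA were searched. They were in 1.08% and 1.01% of all windows and in 0 of the 8. Other octamers that CIC may bind were not searched, so these values do not show that the 8 windows lack a CIC site. The FOXO site GTAAACA was in 3.17% of all windows and in 1 window of Etv5. Both strands were searched in each case, and TGACG lies inside TGACGTCA as GGAA lies inside CCGGAA.

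Totals ran from 17.5 to 22.5 M counts per library, with a median of 21.4 M. The oocyte and granulosa markers were present in every group, with 11 of 12 oocyte and 12 of 12 granulosa markers tested. The summed oocyte markers stood at 3758 to 4794 CPM (a gene's counts scaled to a common library total) over the untreated libraries, and the summed granulosa markers at 7165 to 8910 CPM. Immune markers summed to at most 6.00 CPM in any group, and at 10 ng/ml Tyrobp had no count in the 3 FSH21 libraries and C1qa none in the 3 FSH24 libraries. One library stood apart: library 6 with FSH24 at 1 ng/ml held 439 counts of Upk3b and 250 of Krt19, genes of the ovarian surface epithelium, where libraries 1 and 5 of the group held 5 and 16 of Upk3b and 0 and 0 of Krt19. Library 6 with FSH21 at 1 ng/ml was above its group in the same direction, with 74 counts of Upk3b against 8 and 15 and 42 of Krt19 against 3 and 0. No gene of the 10 was called in the comparisons of these groups, with or without either library. Follicles are mixtures, so fewer cells of a type and less RNA per cell cannot be told apart in any result here.

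All 10 genes were expressed in untreated follicles, at levels that fell in steps from Spred1 to Etv4. Divided by exon length, Spred1 was highest at 13.6 ± 0.935 CPM per kilobase (SD, n = 6 untreated libraries). After it came Etv5 at 11.3 ± 1.199, Spry4 at 10.9 ± 1.32 and Spred2 at 10.8 ± 0.543 CPM per kilobase, and the libraries of neighbours in this order overlapped. A step without overlap led from Spred2 to Spry1 at 7.90 ± 0.630, Dusp5 at 6.45 ± 0.512 and Spry2 at 5.64 ± 0.574 CPM per kilobase, whose ranges met in that order. Dusp6, the cytoplasmic phosphatase of ERK, stood alone at 3.60 ± 0.390, below Spry2 and above Dusp4 with no shared value. Dusp4, a nuclear phosphatase, was at 2.32 ± 0.323 and Etv4 at 1.44 ± 0.339 CPM per kilobase, and these overlapped. Of the ETS factors, Etv5 was thus far above Etv4 in these follicles: its lowest untreated library held 9.91 and the highest of Etv4 1.98 CPM per kilobase. The 2 rarest genes rest on fewer reads, with 54 to 128 counts per library for Etv4 and 93 to 166 for Dusp4, against 1503 to 2149 for Spred1. Exons of Spry1 overlap those of Gm42922 on the other strand, and those of Dusp5 overlap AC137853.2. The use of strand in counting is not given in the sources used here, so reads of these pairs cannot be told apart. Untreated libraries 1, 5 and 6 did not differ detectably from 2, 3 and 4 in any of the 10: log2 differences ran from −0.07 for Spry4 to 0.22 for Etv4. There edgeR called 0 of the 10 genes and 0% of all tested, and DESeq2 called 0 of the 10 and 1 of all tested. By edgeR 0 of the 10 had an unadjusted p under 0.05, where 5.45% of all genes did.

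**Figure D1:**
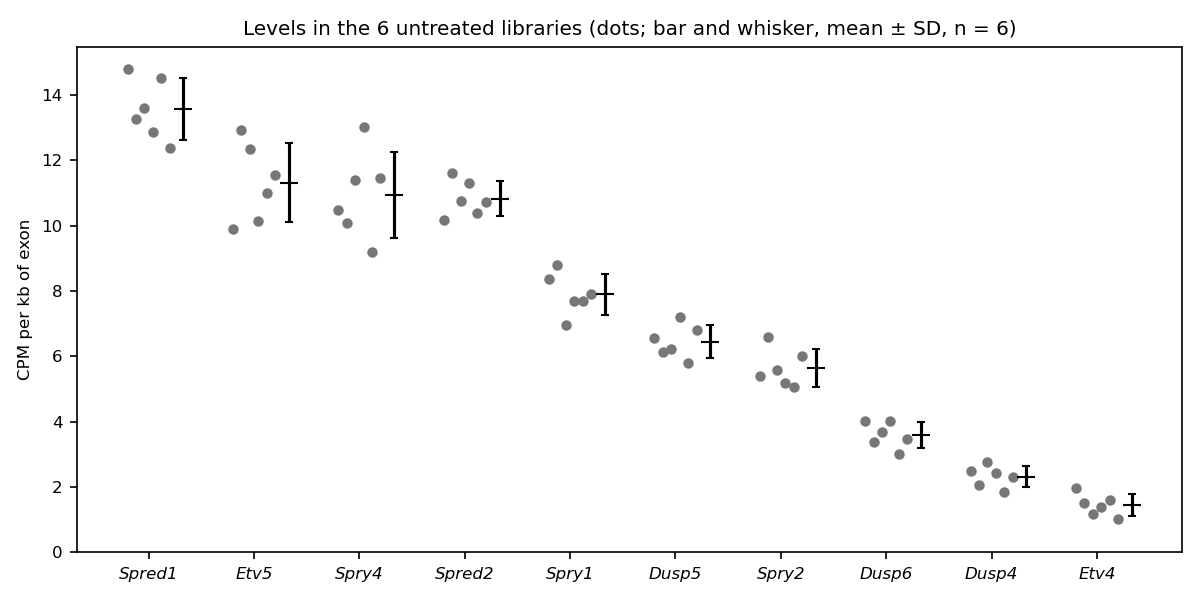
CPM per kilobase of exon (vertical axis) of each of the 10 genes in the 6 untreated libraries, with dots for libraries and a bar with whiskers for mean ± SD. Levels fall in steps from Spred1 at 13.6 to Etv4 at 1.44, with a gap between Spred2 and Spry1 and gaps on both sides of Dusp6.

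With 10 ng/ml of FSH, Spry4 fell with both forms, and no other gene of the 10 was called. Spry4 encodes a Sprouty protein that blocks RAS and RAF activation downstream of receptor tyrosine kinases (ENSMUSG00000024427; GRCm38 chromosome 18, 38586247 to 38601415, minus strand). Its untreated libraries 2, 3 and 4 held 61.9, 43.7 and 54.5 CPM. With FSH21 the libraries of the same numbers held 35.5, 34.7 and 40.6 CPM, and with FSH24 38.0, 40.1 and 35.8 CPM. Every treated library lay below every untreated one, although FSH24 library 3 at 40.1 was close to untreated library 3 at 43.7. Means went from 53.4 ± 9.11 to 36.9 ± 3.19 CPM with FSH21 and 38.0 ± 2.12 CPM with FSH24 (SD, n = 3). Spry4 fell by 30.8% with FSH21 (log2 fold change −0.53, SE 0.13, 95% interval −0.81 to −0.25, adjusted p = 0.0154). With FSH24 it fell by 28.9% (−0.49, SE 0.13, interval −0.77 to −0.21, adjusted p = 0.0277). Both comparisons use the same untreated libraries. Within numbers 2, 3 and 4 the log2 differences were −0.80, −0.33 and −0.42 with FSH21, and −0.70, −0.13 and −0.60 with FSH24. The call with FSH21 was lost without untreated library 2 (−0.42, adjusted p = 0.0679) or FSH21 library 2 (adjusted p = 0.0611) or 3 (0.0619), and that with FSH24 without untreated library 2 (−0.39, 0.118) or 4 (0.0807), FSH24 library 2 (0.0782) or 4 (0.105), and with no filter on low counts (0.0830). Over 12 alternatives each, the log2 fold change stayed between −0.67 and −0.42 with FSH21, called in 9, and between −0.63 and −0.39 with FSH24, called in 7.

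One gene called of 10 is to be read against the whole table. With FSH21 at 10 ng/ml, edgeR called 10.2% of all genes tested, and 4.21% were called lower. With FSH24 it called 8.42%, and 3.3% were called lower. Unadjusted p-values under 0.05 came to 2 of the 10 genes with FSH21 (Spry4 and Spred1), against 22% of all genes, and to 1 of the 10 with FSH24, against 20.8%. The share of these genes called was thus near that of the table. The median log2 fold change of the 10 genes was −0.16 with FSH21 and −0.12 with FSH24, against 0.00 over all genes tested in each. Estimates were below 0 for 8 of the 10 with FSH21 and for 9 with FSH24, against 50% of all genes. Both comparisons use the same untreated libraries, and the 10 genes were chosen with earlier results of these data known. Nothing is therefore read from the medians and signs of the set at either dose.

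**Figure D2:**
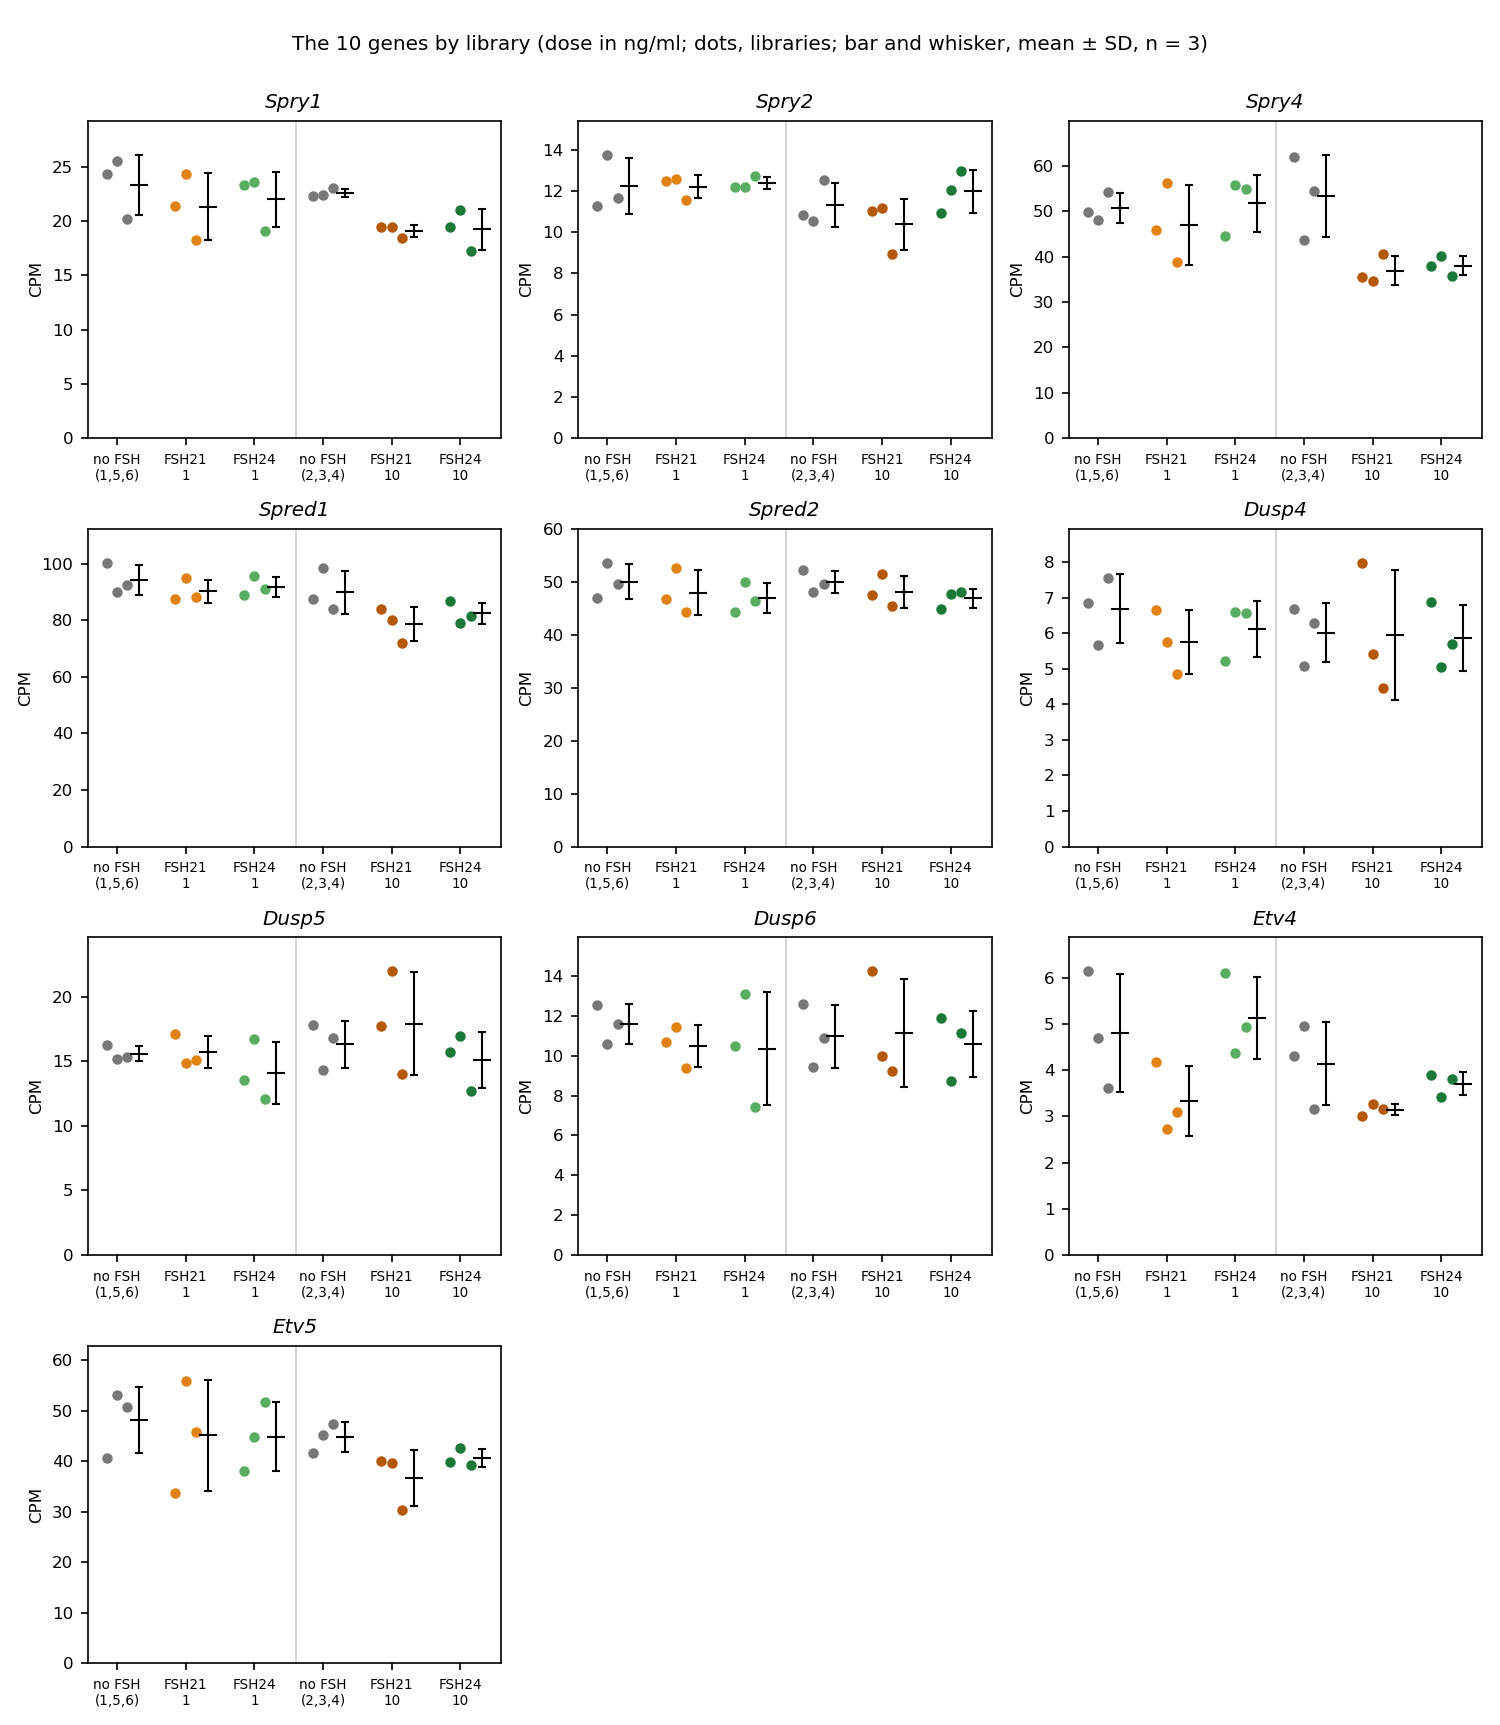
CPM (vertical axis, from 0) of each of the 10 genes in the 18 libraries, by group, with dots for libraries in order of their numbers and a bar with whiskers for mean ± SD (n = 3). In the Spry4 panel the 6 libraries at 10 ng/ml, 34.7 to 40.6 CPM, sit below the untreated libraries 2, 3 and 4, which start at 43.7 CPM.

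Other transcripts shifted beside Spry4 at 10 ng/ml. Summed oocyte markers stood at 4549 to 4794 CPM in untreated libraries 2, 3 and 4, at 3994 to 4507 CPM with FSH21 and at 4014 to 4289 CPM with FSH24, without overlap, although 0 of 11 oocyte markers tested were called. The untreated sets also stood apart, since libraries 1, 5 and 6 held 3758 to 4378 CPM of these markers, in or below the treated range, while Spry4 differed by −0.07 on the log2 scale between the sets. Summed surface epithelium markers stood at 37.7 to 51.8 CPM untreated, 82.8 to 85.6 with FSH21 and 76.4 to 88.6 with FSH24. Most of that sum was Krt8, which rose from a mean of 36.8 CPM to 71.99 and 69.2 CPM. Of the 6 markers tested, Krt8 and Lgals7 rose with both forms and the other 4 were not called. Krt18 held 139 to 162 counts untreated, 139 to 173 with FSH21 and 124 to 175 with FSH24, and Upk3b held 6 to 12, 2 to 5 and 9 to 10 counts. Krt7 held 4, 1 and 1 counts in untreated libraries 2, 3 and 4, 25, 1 and 16 with FSH21 and 2, 0 and 4 with FSH24. Krt19 held 0, 15 and 1 counts untreated, 17, 4 and 4 with FSH21 and 3, 4 and 1 with FSH24. Upk1b had no count in any of these treated libraries. Granulosa, theca and stroma, endothelial and immune sums overlapped between treated and untreated libraries, but single markers were called. Of 12 granulosa markers Kitl, Foxl2 and Amhr2 rose and Fst fell with both forms, and Cyp19a1 rose with FSH21. Of 12 theca and stroma markers the steroid synthesis genes Cyp17a1 and Star rose with both, and 0 endothelial and immune markers were called. The part of these shifts in the Spry4 values was not tested.

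The other Sprouty genes moved less. Spry1 held 22.4, 22.4 and 23.0 CPM in untreated libraries 2, 3 and 4, then 19.4, 19.5 and 18.4 CPM with FSH21 and 19.5, 20.997 and 17.3 CPM with FSH24. All 6 treated libraries lay below the 3 untreated ones, which were close together. The log2 fold change was −0.24 with FSH21 (SE 0.12, interval −0.48 to 0.00, adjusted p = 0.229) and −0.23 with FSH24 (SE 0.12, −0.47 to 0.01, adjusted p = 0.270). Spry2, which stood at 10.9, 10.5 and 12.5 CPM untreated, held 11.1, 11.2 and 8.96 CPM with FSH21 and 10.9, 12.03 and 12.98 CPM with FSH24. These groups overlapped, with log2 fold changes of −0.12 (−0.37 to 0.13) and 0.08 (−0.16 to 0.33). The intervals of Spry2 leave out a fall as large as the estimates for Spry4, and the difference between the 2 genes was not tested.

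Spred1 and Spred2 encode membrane proteins that bring the RAS inhibitor neurofibromin to RAS. Spred1 held 87.4, 98.5 and 84.0 CPM in untreated libraries 2, 3 and 4. With FSH21 it held 83.9, 80.2 and 72.02 CPM, and with FSH24 86.7, 79.2 and 81.4 CPM. The FSH21 libraries lay just below the untreated ones, by 83.9 against 84.0 CPM at the nearest, and the FSH24 libraries overlapped them. The log2 fold change with FSH21 was −0.19 (SE 0.07, interval −0.34 to −0.04, unadjusted p = 0.0140, adjusted p = 0.100), and with all 6 untreated libraries as controls it was −0.23 and called. With FSH24 it was −0.13 (SE 0.07, −0.27 to 0.02, adjusted p = 0.341). Spred2 was the steadiest of the 10, with an SD of log2 CPM over the 18 libraries of 0.08, in the 9.78th percentile of all genes tested. It lay between 44.9 and 52.3 CPM in the 9 libraries of numbers 2, 3 and 4, with log2 fold changes of −0.05 (−0.21 to 0.11) and −0.09 (−0.25 to 0.07).

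None of the phosphatase genes was called, and their libraries overlapped in every comparison with the untreated ones. Dusp6 held 12.6, 9.44 and 10.9 CPM untreated, 14.2, 9.96 and 9.24 CPM with FSH21 and 11.9, 8.72 and 11.1 CPM with FSH24 at 10 ng/ml. Within each of these groups the library numbered 2 was the highest. The log2 fold changes of Dusp6 were 0.02 (SE 0.19, interval −0.39 to 0.43) and −0.05 (−0.46 to 0.36). Dusp4 held 6.69, 5.09 and 6.29 CPM untreated, 7.98, 5.42 and 4.45 CPM with FSH21 and 6.89, 5.05 and 5.69 CPM with FSH24, again highest in number 2. Its log2 fold changes were −0.02 (−0.46 to 0.42) and −0.03 (−0.47 to 0.40). Dusp5, which encodes a nuclear ERK phosphatase, held 17.8, 14.3 and 16.8 CPM untreated, 17.8, 22.0 and 14.03 CPM with FSH21 and 15.7, 16.9 and 12.7 CPM with FSH24. Its log2 fold changes were 0.14 (−0.18 to 0.46) and −0.11 (−0.43 to 0.21). The intervals of Dusp4 and Dusp6 are wide enough to hold a log2 fold change like the −0.29 of Etv5 with FSH21, so a change of that size was not detectable in them.

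Of the ETS factors, Etv5 held 41.6, 45.2 and 47.4 CPM in untreated libraries 2, 3 and 4, then 40.1, 39.7 and 30.3 CPM with FSH21 and 39.8, 42.6 and 39.3 CPM with FSH24. The FSH21 libraries lay below the untreated ones, with library 4 far under the other 2, and the FSH24 libraries overlapped them. The log2 fold change was −0.29 with FSH21 (SE 0.16, interval −0.63 to 0.06, adjusted p = 0.332) and −0.14 with FSH24 (SE 0.16, −0.48 to 0.20, adjusted p = 0.708). Etv4 held 4.30, 4.95 and 3.17 CPM untreated, 3.01, 3.26 and 3.16 CPM with FSH21 and 3.90, 3.42 and 3.81 CPM with FSH24. These overlapped, with log2 fold changes of −0.40 (SE 0.23, −0.88 to 0.09, adjusted p = 0.348) and −0.16 (SE 0.23, −0.64 to 0.32, adjusted p = 0.781). Over the 10 genes, every treated library lay below every untreated one for 4 genes with FSH21 (Spry1, Spry4, Spred1 and Etv5), as it did for 12% of all genes tested. With FSH24 it did so for 2 (Spry1 and Spry4), against 10.7% of all genes. Treated libraries all lay above for 0 of the 10, against 15.7% of all genes with FSH21 and 13.8% with FSH24.

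**Figure D3:**
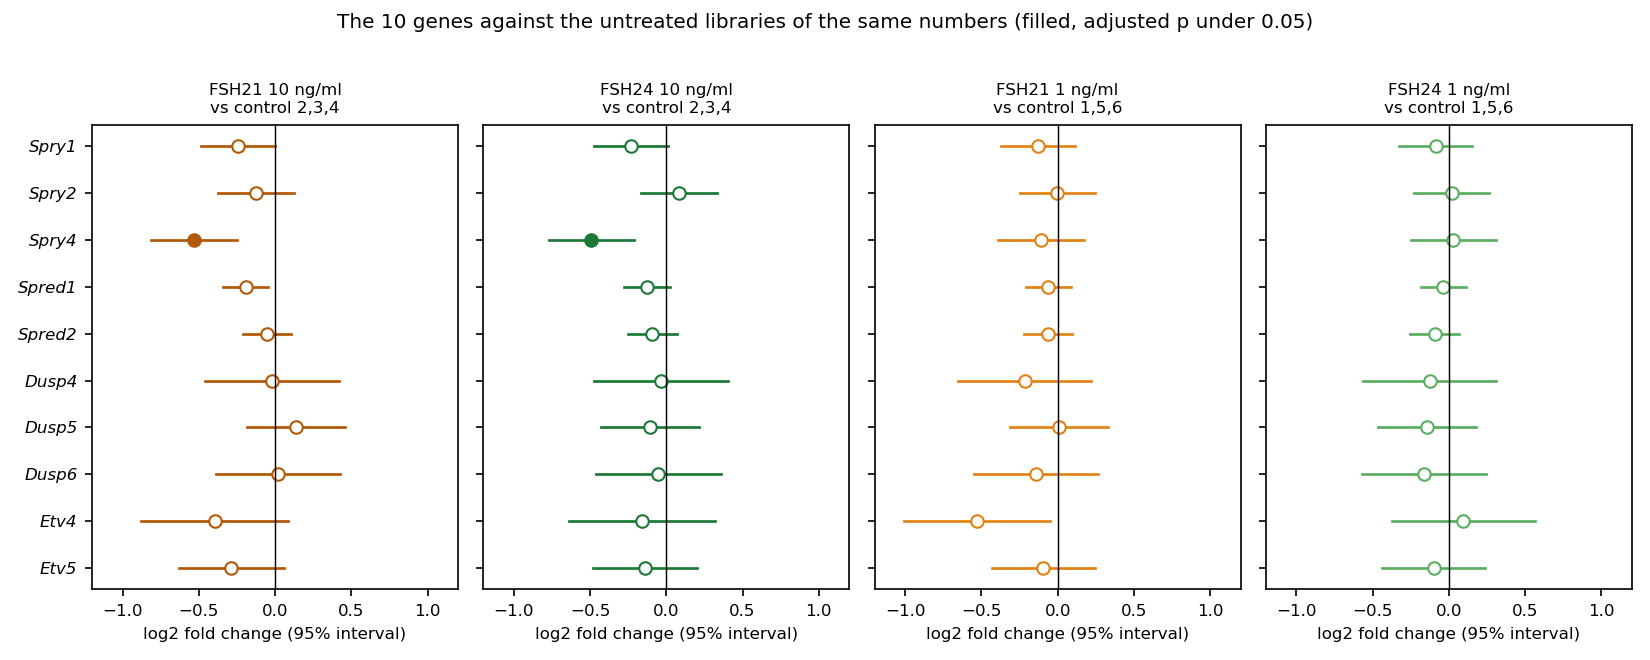
Log2 fold change (horizontal axis) with its 95% interval for each of the 10 genes in the 4 comparisons with untreated libraries of the same numbers; filled circles have an adjusted p under 0.05. Filled circles are the Spry4 values at 10 ng/ml, −0.53 with FSH21 and −0.49 with FSH24, and the widest intervals belong to Etv4.

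At 1 ng/ml none of the 10 genes was called with either form, and none had treated and untreated libraries apart. Spry4 held 49.8, 48.0 and 54.3 CPM in untreated libraries 1, 5 and 6. With FSH21 it held 45.9, 56.3 and 38.8 CPM, and with FSH24 44.5, 55.8 and 54.8 CPM. Both treated groups spread to either side of the untreated one, with log2 fold changes of −0.11 (SE 0.13, interval −0.39 to 0.17) and 0.03 (SE 0.13, −0.25 to 0.31). Etv4 had the largest estimate with FSH21: 6.14, 4.68 and 3.60 CPM untreated and 4.17, 2.72 and 3.09 CPM treated. Its groups overlapped, and the log2 fold change of −0.53 (SE 0.23, −1.01 to −0.05) had an unadjusted p of 0.0318 and an adjusted p of 0.618 by edgeR. The other 9 genes ran from −0.22 for Dusp4 to 0.01 for Dusp5 with FSH21, and all 10 from −0.16 for Dusp6 to 0.09 for Etv4 with FSH24. EdgeR and DESeq2 both called 0 of the 10 at this dose. EdgeR called 0.128% of all genes with FSH21 and 0% with FSH24, where DESeq2 called 111 and 1 of the 18727 genes. Unadjusted p-values under 0.05 came to 1 of the 10 against 7.32% of all genes with FSH21, and to 0 of the 10 against 5.98% with FSH24. Treated libraries lay wholly below untreated ones for 0 of the 10 in both, against 6.23% and 5.02% of all genes. They lay wholly above for 0 of the 10, against 6.75% and 5.3%. The medians of the 10 genes were −0.10 and −0.09, against 0.00 over all genes in each.

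The glycoforms were then compared with each other. At 10 ng/ml Spry4 differed between FSH21 and FSH24 by −0.04 (log2; SE 0.14, interval −0.32 to 0.24), which bounds a difference but does not show that they act alike. Spry2 at −0.21 (−0.46 to 0.04), Dusp5 at 0.25 (−0.08 to 0.57) and Etv4 at −0.24 (−0.72 to 0.25) had the largest estimates. None of the 10 was called by edgeR or DESeq2, where edgeR called 0% of all genes and DESeq2 5 of the 18727. By edgeR 0 of the 10 had an unadjusted p under 0.05, against 2.19% of all genes. Etv4 libraries with FSH21, 3.01 to 3.26 CPM, lay below those with FSH24, 3.42 to 3.90 CPM. It was the 1 gene of the 10 in this order, as were 3.55% of all genes.

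Etv4 was also the gene that differed most between the forms at 1 ng/ml. The FSH21 libraries 1, 5 and 6 held 4.17, 2.72 and 3.09 CPM, and the FSH24 libraries 6.11, 4.36 and 4.94 CPM. Each FSH21 library lay below each FSH24 one, and library 1 was the highest of both groups. The log2 difference was −0.62 (SE 0.23, interval −1.10 to −0.15), with an unadjusted p of 0.0133 and an adjusted p of 0.397 by edgeR, so it was not called. The mean with FSH24, 5.14 ± 0.888 CPM, was close to the untreated 4.81 ± 1.27, while that with FSH21 was 3.33 ± 0.757 (SD, n = 3). The other 9 genes differed by −0.14 for Spry4 to 0.16 for Dusp5. EdgeR called 0 of the 10 and 0.0107% of all genes, and DESeq2 called 0 of the 10 and 204 of the 18727 genes. By edgeR 1 of the 10 had an unadjusted p under 0.05, against 9.45% of all genes. Etv4 was the 1 gene of the 10 with FSH21 wholly below FSH24, against 7.09% of all genes.

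A further test asked whether the effect of each form differed between 10 and 1 ng/ml, each against its own untreated libraries. For Spry4 the effect at 10 ng/ml was lower by −0.42 on the log2 scale with FSH21 (SE 0.19, interval −0.82 to −0.03, unadjusted p = 0.0382, adjusted p = 0.668 by edgeR). With FSH24 the difference was −0.52 (SE 0.19, −0.92 to −0.13, unadjusted p = 0.0129, adjusted p = 0.179). Neither was called, so the fall of Spry4 at 10 ng/ml is not shown to differ from its values at 1 ng/ml. For the other 9 genes the differences ran from −0.19 for Etv5 to 0.20 for Dusp4 with FSH21, and from −0.25 for Etv4 to 0.11 for Dusp6 with FSH24. EdgeR and DESeq2 called 0 of the 10 with either form. Of all 18727 genes, edgeR called 0.272% with FSH21 and 2.45% with FSH24, and DESeq2 called 167 and 816 genes. Unadjusted p-values under 0.05 by edgeR came to 1 of the 10 each, against 7.01% and 14.9% of all genes.

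**Figure D4:**
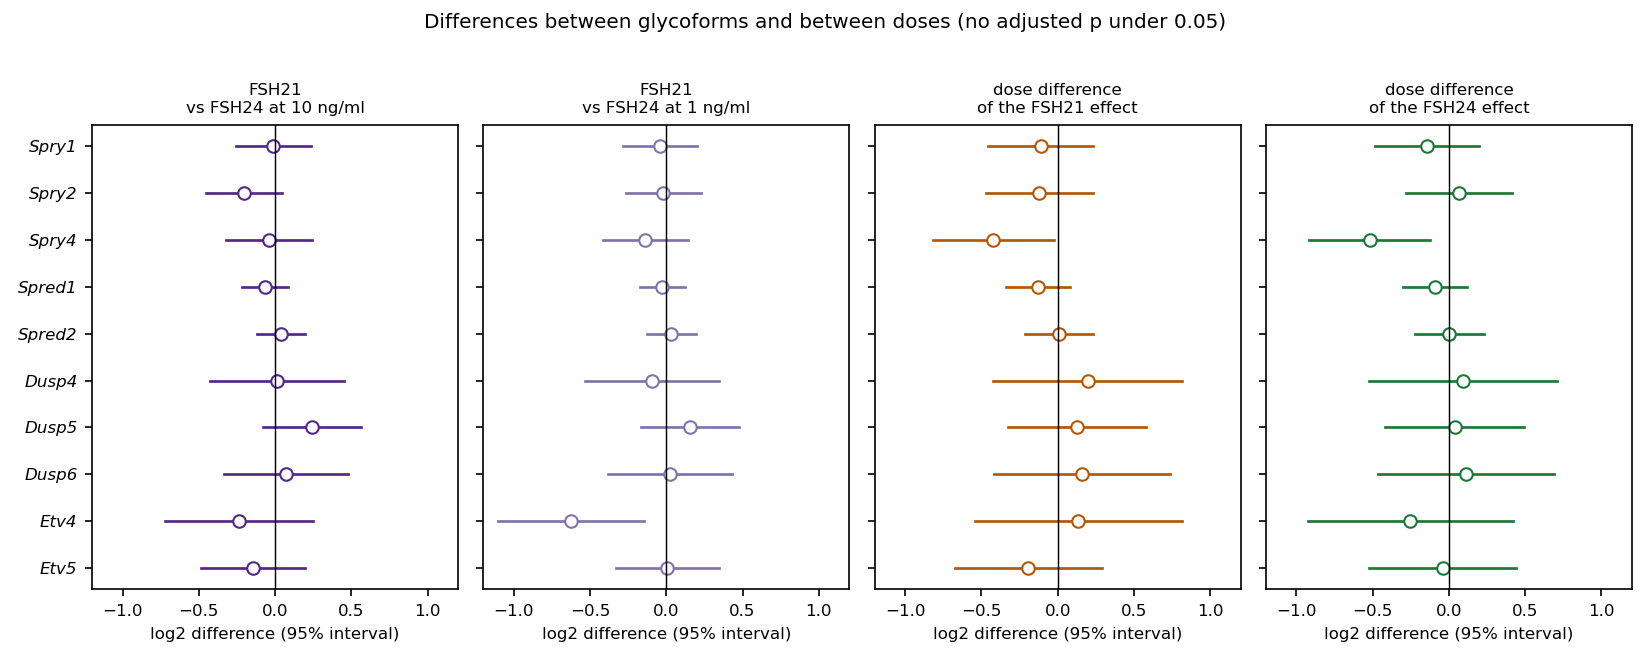
Log2 difference (horizontal axis) with its 95% interval for each of the 10 genes between FSH21 and FSH24 at each dose, and between doses for the effect of each form. The intervals of Etv4 between forms at 1 ng/ml (−1.10 to −0.15) and of Spry4 between doses lie below 0, and no adjusted p is under 0.05.

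The genes whose course over the 18 libraries was most like that of Spry4 were found by the root mean square difference of log2 CPM, each gene centred on its own mean. Of all tested genes outside the 10, Igsf3, a membrane protein of the immunoglobulin superfamily, came nearest at 0.12 and Snx18, a sorting nexin of membrane traffic, next at 0.14, where the root mean square of Spry4 around its own mean was 0.26. Igsf3 went from 95.6 ± 5.17 CPM in untreated libraries 2, 3 and 4 to 76.2 ± 7.88 with FSH21 (log2 fold change −0.33, adjusted p = 0.0215) and 72.7 ± 5.42 with FSH24 (−0.39, adjusted p = 0.00733) at 10 ng/ml. Snx18 went from 371.6 ± 29.9 to 267.9 ± 7.97 CPM (−0.47, adjusted p = 0.000114) and 278.0 ± 11.2 CPM (−0.42, adjusted p = 0.000500). Both were picked for this likeness, so their changes add no support to that of Spry4. Among the 10 genes the closest pairs were Spred1 with Spred2 at 0.130, Spry1 with Spred1 at 0.131 and Spry2 with Spred2 at 0.133. The SDs of log2 CPM of Spred2, Spred1, Spry2 and Spry1 were only 0.08, 0.12, 0.14 and 0.17. Genes that vary little come out close by this measure, so these values do not show a shared course. Spry4 was nearest to Spry1 at 0.20. Etv4 varied most over the 18 libraries, with an SD of log2 CPM of 0.34, followed by Spry4 at 0.26.

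The rest of the pathway was read from 7 lists of 120 genes, of which 114 were tested. At 10 ng/ml 10 of the 114 rose and 6 fell with FSH21, a called share of 14% against 10.2% of all genes tested, and 10 rose and 5 fell with FSH24, 13.2% against 8.42%. Over all genes 5.96% rose and 4.21% fell with FSH21, and 5.12% rose and 3.3% fell with FSH24. The lists were chosen with earlier results of these data known, so nothing is read from these shares. Of 15 receptor tyrosine kinases 0 were called with FSH21, and with FSH24 the FGF receptor gene Fgfr2 rose (0.37, SE 0.11, adjusted p = 0.0418). Among the adaptors and RAS regulators Rasal2, a GTPase-activating protein of RAS, rose with FSH21, and of 17 kinases and scaffolds of the RAF-MEK-ERK cascade the scaffold gene Ksr1 rose with both and Iqgap1 with FSH24. These rises were small: with FSH21 Rasal2 went from 31.7 ± 2.52 to 39.6 ± 1.06 CPM and Ksr1 from 39.4 ± 1.13 to 46.0 ± 1.31 CPM. Of 15 other feedback genes tested, Dusp8, a phosphatase of JNK and p38 kinases, rose with FSH21 (4.04 ± 0.867 to 8.02 ± 2.41 CPM, adjusted p = 0.0341) and Il17rd, a membrane inhibitor of FGF signalling also called Sef, with FSH24 (97.3 ± 7.78 to 116.9 ± 5.23 CPM, adjusted p = 0.0496). The median log2 fold change of these 15 was −0.09 with FSH21 and −0.04 with FSH24. Several of these calls were lost when 1 library was left out, which also lowered the number of calls over all genes. Whichever 1 of the 6 libraries compared was left out, the calls of Rasal2 and Ksr1 with FSH21 and of Fgfr2 and Il17rd with FSH24 were lost (highest adjusted p 0.172, 0.184, 0.207 and 0.252). Dusp8 was lost without untreated library 2 or 4 or FSH21 library 2 or 3 (up to 0.181), Ksr1 with FSH24 without untreated 2 or 4 or FSH24 4 (up to 0.121), and Iqgap1 without untreated 2 or 4 or FSH24 2 or 4 (up to 0.241). Other settings also ended calls: with only the groups compared those of Ksr1 (0.0715 with FSH21, 0.0609 with FSH24), Il17rd (0.0690) and Iqgap1 (0.1501), with no filter those of Ksr1 (0.157 and 0.0709) and Fgfr2 (0.0510), with DESeq2's size factors that of Il17rd (0.0579), and with all 6 untreated libraries that of Rasal2 (0.147).

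Growth factor ligands and ERK output genes held the larger changes. Kitl, which granulosa cells make and the KIT receptor on the oocyte binds, stood at 121 to 144 CPM in untreated libraries 2, 3 and 4 and rose to 383 to 457 CPM with FSH21 (1.64, SE 0.08, adjusted p = 9.21e-10) and 369 to 427 CPM with FSH24 (1.53, SE 0.08, adjusted p = 3.01e-09). Tgfa, a ligand of the EGF receptor, rose from 35.8 ± 2.31 to 55.7 ± 6.07 CPM with FSH21 and 50.9 ± 5.27 CPM with FSH24. Igf1 fell from 308.9 ± 16.2 to 167.8 ± 10.6 and 196.1 ± 7.48 CPM, and Pdgfb, which codes for a platelet-derived growth factor chain, from 57.8 ± 2.91 to 31.8 ± 1.92 and 32.8 ± 3.52 CPM. Of 16 ligands tested, 2 rose and 4 fell with FSH21, and 2 rose and 3 fell with FSH24, where 10.2% and 8.42% of all genes were called. The remaining fallers, named after their values were seen to complete these counts, were Hbegf with both forms and Pdgfa with FSH21, 2 further growth factor genes. Of 17 immediate-early and output genes, Myc, a transcription factor of growth, fell from 119.3 ± 7.53 to 50.6 ± 4.01 CPM with FSH21 (−1.24, SE 0.09, adjusted p = 1.23e-07) and 54.2 ± 5.58 CPM with FSH24 (−1.14, SE 0.09, adjusted p = 5.60e-07). Fosl2, a FOS-family gene, rose from 209.0 ± 10.5 to 321.2 ± 39.1 and 336.9 ± 51.2 CPM, and Jun, its partner in AP-1, rose with FSH21 (22.2 ± 5.32 to 43.2 ± 5.52 CPM). Between the forms at 10 ng/ml edgeR called 0 of the 114 genes, as it called 0% of all genes tested. The calls of Kitl, Igf1, Pdgfb, Myc and Fosl2 with both forms and of Tgfa and Jun with FSH21 were kept without any 1 of the 6 libraries, and so was that of Hbegf with FSH24. The call of Tgfa with FSH24 was lost without FSH24 library 4 (adjusted p = 0.0531), that of Hbegf with FSH21 without FSH21 library 3 (0.0617), and that of Pdgfa without any 1 of the 6 libraries except FSH21 library 3 (up to 0.202), with no filter (0.0655), with only the groups compared (0.0864) and with all 6 untreated libraries (0.101).

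The ETS factors beyond Etv4 and Etv5 moved in both directions. Of 16 genes on the list of other ETS factors and regulators of ETV genes, 2 rose and 1 fell with each form at 10 ng/ml, where 10.2% of all genes were called with FSH21 and 8.42% with FSH24. Etv6, an ETS repressor, rose from 76.6 ± 2.31 to 103.2 ± 4.90 CPM with FSH21 (0.43, SE 0.06, adjusted p = 0.000214) and 103.9 ± 8.76 CPM with FSH24 (0.44, SE 0.06, adjusted p = 0.000252). The treated libraries, 96.9 to 113.8 CPM, all lay above the untreated ones, 74.7 to 79.2 CPM, and the calls were kept without any 1 library. Elk3, a ternary complex factor, fell from 40.8 ± 3.20 to 27.9 ± 2.650 CPM with FSH21 (−0.55, SE 0.10, adjusted p = 0.00175) and 30.7 ± 1.97 CPM with FSH24 (−0.41, SE 0.10, adjusted p = 0.0168). The call of Elk3 with FSH24 was lost without untreated library 4 or FSH24 library 2 or 3 (up to 0.0779). Cic, which encodes the repressor of Etv4 and Etv5 named above, rose from 331.7 ± 17.2 to 384.2 ± 14.8 CPM with FSH21 (0.21, SE 0.06, adjusted p = 0.0435) and 391.7 ± 22.2 CPM with FSH24 (0.24, SE 0.06, adjusted p = 0.0253). The call of Cic with FSH21 was lost whichever 1 of the 6 libraries was left out (up to 0.196), with DESeq2's size factors (0.0537), with no filter (0.0901) and with only the groups compared (0.0817). With FSH24 it was lost without untreated library 2 or 3 or FSH24 library 2 or 4 (up to 0.171) and with only the groups compared (0.0932). At 1 ng/ml 3 of the 114 genes were called with FSH21, 2 higher and 1 lower, and 0 with FSH24, where 0.128% and 0% of all genes were called. Kitl rose from 157.5 ± 2.67 to 237.0 ± 11.2 CPM (adjusted p = 0.0102), Etv6 rose from 74.6 ± 3.56 to 96.7 ± 3.60 CPM (adjusted p = 0.0327), and Myc fell from 134.5 ± 9.29 to 92.3 ± 8.26 CPM (adjusted p = 0.0265). Etv6 was lost there whichever 1 of the 6 libraries was left out (up to 0.193) and with only the groups compared (0.141), Myc without untreated library 1 or 6 or FSH21 library 1 or 5 (up to 0.164) and with only the groups compared (0.0886), and Kitl without untreated 6 or FSH21 5 (up to 0.0918).

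**Figure D5:**
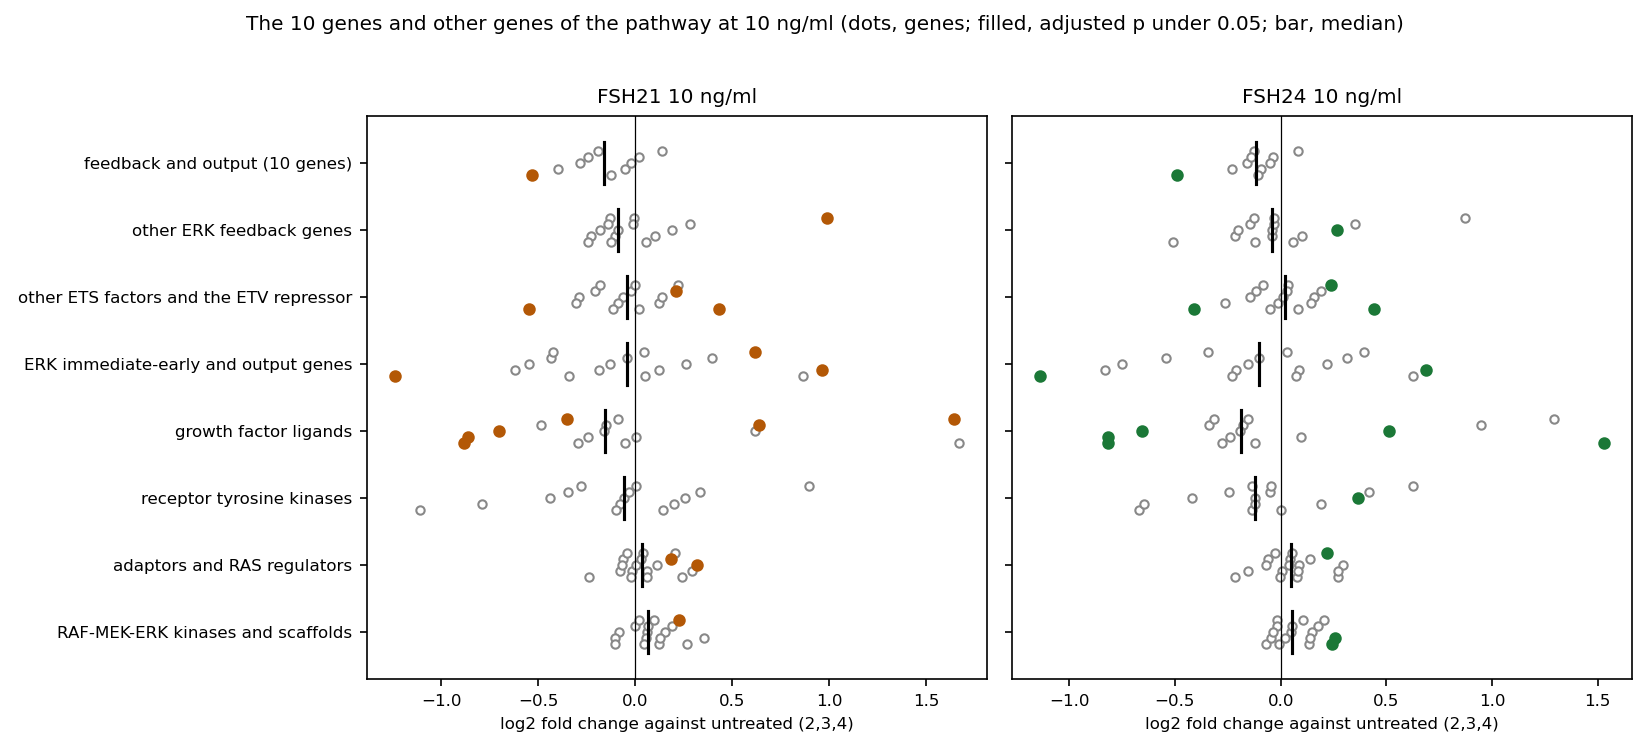
Log2 fold change against untreated libraries 2, 3 and 4 (horizontal axis) of each tested gene of the 8 lists at 10 ng/ml of FSH21 (left) and FSH24 (right); filled dots have an adjusted p under 0.05 and bars are list medians. The 10 feedback and output genes lie between −0.53 and 0.14, while the ligand and output lists reach 1.64 for Kitl and −1.24 for Myc among their called genes.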

How the data were processed

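RNA of cultured follicles was sequenced in 18 libraries, each run on 4 lanes. The authors deposited expected counts per gene and library, as RSEM writes them per the file headers. Reads were handled with bcl2fastq and FastQC and aligned with STAR 2.7 to mm10, per the submitters' processing notes; the RSEM version, the annotation and the use of strand are not given in the sources used here. Expected counts were rounded to whole numbers (33.9% of non-zero values were not whole). Genes kept by filterByExpr, run on the groups at its minimum count of 10, were tested with edgeR 4.0.16 in R 4.3.3: TMM scaling, robust quasi-likelihood fit over all 18 libraries in 6 groups, no replicate block, Benjamini-Hochberg adjustment over 18727 genes, called at an adjusted p under 0.05. Standard errors and 95% intervals come from that fit. Between pairs of libraries in a group the variance over all genes was 8.74 to 23.2 times that of Poisson counting. CPM (counts per scaled library total) use TMM-scaled totals with no prior, log2 CPM a prior count of 2, and lengths come from GENCODE M21 on GRCm38. The code was tested on simulated data.

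All 10 genes were named, with the 2 genes most like each called one, and from each pathway list up to 2 risen and 2 fallen genes with the lowest adjusted p per dose; 1 of these is not reported here. The 10 genes and all lists were chosen with earlier results of these data known. Deviations of same-numbered FSH21 libraries at 10 ng/ml and untreated ones correlated (r across genes 0.193, 0.206 and 0.126 for numbers 2, 3 and 4). The labels do not name these as pairs, and differently numbered libraries were not compared in this way. Results with a replicate block are given below. Alternatives were DESeq2 1.42.0, its size factors, no filter, the replicate block, only the groups compared, all 6 untreated libraries as controls, and leaving out each library.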

Additional observations from a re-analysis of the deposited data

Results flagged for a closer look

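Groups of 3 libraries are too small to test single libraries as outliers. None of the 10 genes differed between doses or forms by the test of the difference, but genes of the pathway lists did. Without the libraries named, the call was lost.

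Kitl was higher with FSH21 than with FSH24 at 1 ng/ml by 0.56 on the log2 scale (SE 0.08, adjusted p = 0.0211), lost without FSH21 library 1 or 5 or FSH24 library 5 or 6 (up to 0.176) and with only the groups compared (0.0942).

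For FSH21 the effect at 10 ng/ml exceeded that at 1 ng/ml for Kitl, by 1.05 (SE 0.11, adjusted p = 0.000165). It was lower for Igf1, by −0.71 (SE 0.12, adjusted p = 0.0155), and neither call was lost without any 1 library. It was lower for Myc by −0.69 (SE 0.13, adjusted p = 0.0278), lost without untreated library 2, 3, 5 or 6, FSH21 library 6 at 1 ng/ml, or FSH21 library 2 or 4 at 10 ng/ml (up to 0.0924).

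For FSH24 the dose difference was 1.498 for Kitl (SE 0.11, adjusted p = 1.23e-06), −0.89 for Myc (SE 0.13, adjusted p = 0.00120), −0.72 for Pdgfb (SE 0.11, adjusted p = 0.00264) and −0.60 for Igf1 (SE 0.12, adjusted p = 0.0123), and no call of these was lost without any 1 library. It was 0.39 for Etv6 (SE 0.09, adjusted p = 0.030), lost without untreated library 2, 4, 5 or 6, FSH24 library 1, 5 or 6 at 1 ng/ml, or FSH24 library 4 at 10 ng/ml (up to 0.107) and with only the groups compared (0.0780). For Fosl2 it was 0.64 (SE 0.15, adjusted p = 0.0281), lost without untreated library 2, 4, 5 or 6, FSH24 library 1 or 5 at 1 ng/ml, or FSH24 library 4 at 10 ng/ml (up to 0.0962) and with only the groups compared (0.0503). For Hbegf it was −0.99 (SE 0.24, adjusted p = 0.0367), lost without untreated library 1, 2, 4, 5 or 6, FSH24 library 1 or 6 at 1 ng/ml, or FSH24 library 2 or 4 at 10 ng/ml (up to 0.0926), with only the groups compared (0.0629) and with no filter (0.0534). Each dose had its own numbers, so dose and number set cannot be told apart in the treated libraries.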

How the results depend on the processing

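Of 480 recomputed log2 fold changes of the 10 genes, 437 kept their direction and side of the threshold, 34 reversed, 8 lost the call and 1 gained it, and none that reversed was called either way. The cause was not tested. With no filter 0 of the 10 genes were called with FSH24 at 10 ng/ml, and with all 6 untreated libraries 2 were called with FSH21 at 10 ng/ml (Spry4 and Spred1, −0.23, adjusted p = 0.0162). Leaving out 1 library gave 0 to 1 called with either form at 10 ng/ml. With all 6 untreated libraries Dusp6 became −0.0203 with FSH21 at 10 ng/ml, Spry2 0.0531 and Dusp5 −0.0217 with FSH21 at 1 ng/ml, and Spry4 −0.00783 with FSH24 at 1 ng/ml. Leaving out 1 library, values with FSH21 at 10 ng/ml ran from −0.208 to 0.137 for Dusp6, −0.301 to 0.149 for Dusp4 and −0.0497 to 0.286 for Dusp5. With FSH24 at 10 ng/ml they ran from −0.180 to 0.0623 for Dusp4 and −0.167 to 0.0684 for Dusp6. With FSH21 at 1 ng/ml they ran from −0.0592 to 0.0837 for Spry2, −0.0569 to 0.0495 for Dusp5, −0.278 to 0.0774 for Etv5 and −0.260 to 0.00488 for Spry4. With FSH24 at 1 ng/ml they ran from −0.0278 to 0.125 for Spry4, −0.0394 to 0.108 for Spry2, −0.0705 to 0.0104 for Spred1, −0.0770 to 0.308 for Etv4, −0.215 to 0.00292 for Etv5, −0.182 to 0.00508 for Spry1 and −0.370 to 0.0280 for Dusp6.

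With the replicate block Spry4 stayed called at 10 ng/ml (−0.52, adjusted p = 0.0240 with FSH21, and −0.48, 0.0389 with FSH24), and with FSH21 Spry1 (0.0515), Spred1 (0.0557) and Etv5 (0.0739) did not pass; the block changed no count of the 10 genes called. Outside FSH21 at 10 ng/ml, deviations of same-numbered treated and untreated libraries also correlated. They did so at 0.223, 0.0889 and 0.0770 with FSH24 at 10 ng/ml. At 1 ng/ml the values were 0.178, 0.157 and 0.0654 with FSH21, and 0.126, 0.148 and 0.0496 with FSH24. Differently numbered libraries were not compared in this way, so what a shared number holds was not tested. Calls over all genes moved by more than 1.5 times with FSH21 at 1 ng/ml (24; 226 with the block, 111 by DESeq2, 59 with no filter, 57 with all untreated libraries, 1 with only the groups compared) and with FSH24 at 10 ng/ml (1577; 2547 with the block). They did so too with FSH21 at 10 ng/ml (1906; 2898 with all untreated libraries), between forms at 1 ng/ml (2; 204 by DESeq2, 177 with the block, 65 with no filter, 0 with only the groups compared) and at 10 ng/ml (0; 5 by DESeq2), and between doses (51 with FSH21; 229, 167 and 102 with the block, DESeq2 and no filter; and 458 with FSH24; 1180 and 816 with the block and DESeq2). Leaving out 1 library gave 1250 to 1630 calls over all genes with FSH21 and 982 to 1439 with FSH24 at 10 ng/ml, 0 to 21 with FSH21 and 0 to 1 with FSH24 at 1 ng/ml, 0 to 7 and 0 to 1 between forms at 1 and 10 ng/ml, and 20 to 66 (FSH21) and 217 to 517 (FSH24) between doses; the lowest at 10 ng/ml came without untreated library 4. By the longest transcript in place of all exons, Spred1 stayed highest at 15.3 and Etv4 lowest at 1.87 CPM per kilobase. Spred2 at 11.2 then stood above Spry4 at 10.9 CPM per kilobase. The overlap of libraries was read for all exons only, so the steps between genes, such as that above Spry1, may not hold by this length. Etv4, with 54 to 128 counts per library, is where depth limits most.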
